A study of Mus musculus with 9 samples.

Results

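The 35 genes described here encode the folding machinery of the endoplasmic reticulum (ER) and the unfolded protein response, the signalling that adjusts this machinery to the load of new proteins. The genes were taken by symbol, and the rule uses no measured change. A probe set, the group of probes on the array that measures a transcript, was used where it was annotated to a member's symbol alone. A gene with several such probe sets was represented by the one with the highest mean signal over the 9 arrays. This rule found 84 probe sets, and 25 of the genes had several. All 35 representatives passed the filter on dim signals, out of 18193 genes with such a probe set and 12467 with a tested representative. By role, 17 genes act in folding, 7 in ER-associated degradation (ERAD), 2 in the translocon, 4 are sensors or the factor Xbp1, and 5 are Atf4 and its targets.

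RNA came from livers of 9 female mice of the stock Crlj:CD1(ICR), an outbred line, purchased when 9 weeks old and quarantined for 1 week. For 2 weeks, 3 mice ate a powdered diet with no added compound, 3 ate it with permethrin at 5000 ppm and 3 ate it with clofibrate at 5000 ppm. Each mouse gave 1 array, and the labels call the mice biological replicates. Permethrin is a pyrethroid insecticide, and clofibrate is a lipid-lowering drug that activates the nuclear receptor PPAR alpha. The descriptions of the treated samples speak of rats, while their organism, source and strain give mouse.

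Hepatocytes secrete most plasma proteins, so their ER carries a large folding load. New chains enter through the Sec61 channel, fold with chaperones and disulfide isomerases, and are returned to the cytosol for degradation by ERAD when folding fails. Unfolded protein is sensed by IRE1 (Ern1), PERK (Eif2ak3) and ATF6: IRE1 splices the mRNA of Xbp1, ATF6 is cleaved into a transcription factor, and PERK raises the translation of ATF4. The arrays measured transcript signals, so splicing, cleavage and translation were not measured.

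The promoters of several members hold letters known from this pathway, and they are shown because the genes that carry them take part in the comparisons that follow. RefSeq windows from 250 bases before to 50 after each transcription start (GRCm38.p6) were searched on both strands, and 30 of the 35 members had a window. The ER stress response element, CCAAT and CCACG with 9 bases of any kind between them, was in the windows of 9 of these 30 members (30%), and in 37 of 27025 genes in all (0.137%). Those 9 genes were Calr, Canx, Creld2, Derl3, Dnajc3, Hsp90b1, Hspa5, Pdia6 and Syvn1. A further form of the element, ATTGG and CCACG parted by 1 base of any kind, was in 2 members, Dnajb11 and Herpud1, and in 12 genes in all (0.0444%). The XBP1-type core TGACGTGG was in 0 of 30 members and in 193 genes (0.714%), and the C/EBP-ATF element TGATGNAAN was in 4 members (13.3%), Asns, Atf3, Herpud1 and Trib3, and in 1215 genes (4.5%). A match is a description of letters and not a shown binding site. Each stretch below runs 5′ to 3′ in the direction of its gene, with the element in capitals, and reads as the reverse complement where the element lies on the opposite strand (Calr and Creld2).
Hspa5 (chr2:34772013-34772055, plus strand): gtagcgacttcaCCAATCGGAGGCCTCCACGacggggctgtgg
Pdia6 (chr12:17266479-17266521, plus strand): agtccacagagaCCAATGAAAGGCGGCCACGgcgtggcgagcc
Calr (chr8:84847063-84847105, minus strand): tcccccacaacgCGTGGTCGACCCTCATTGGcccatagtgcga
Creld2 (chr15:88819508-88819550, plus strand): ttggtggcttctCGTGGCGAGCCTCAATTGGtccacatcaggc
Dnajc3 (chr14:118937815-118937857, plus strand): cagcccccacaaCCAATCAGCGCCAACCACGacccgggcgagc
Syvn1 (chr19:6046520-6046562, plus strand): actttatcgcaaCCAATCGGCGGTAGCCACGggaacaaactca
Dnajb11 (chr16:22857843-22857871, plus strand): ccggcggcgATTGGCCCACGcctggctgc
Asns (chr6:7693212-7693244, minus strand): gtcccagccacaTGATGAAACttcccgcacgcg
The element began 65 bases before the start in Hspa5, 98 in Pdia6, 162 in Calr, 126 in Creld2, 105 in Dnajc3, 44 in Syvn1 and 23 in Asns, while in Dnajb11 it lay in the first transcribed bases.

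The values are MAS5 signals, brightness on a linear scale that the authors had scaled to the same trimmed mean on every array. Median signals lay between 13.4 and 17.9. Pairs of arrays correlated at 0.959 to 0.966 within groups and at 0.952 to 0.963 between groups, over log2 signals of probe sets, none of which is an independent replicate. The hybridization controls are transcripts spiked at a known amount, and their log2 signals averaged 10.12 ± 0.16 on the control arrays, 9.97 ± 0.18 on the permethrin arrays and 9.78 ± 0.12 on the clofibrate arrays. When each array was scaled to them, the change of the median gene shifted on the log2 scale by 0.32 (clofibrate against control), 0.14 (permethrin against control) and -0.18 (permethrin against clofibrate). Under that scaling, the calls for clofibrate against control over all genes went from 402 higher and 474 lower to 1015 higher and 88 lower. Changes are log2 differences of signal plus an offset of 3.35 and are given ± SE, while ± after a signal is the SD (n = 3). A gene is said to have risen or fallen where limma's Benjamini-Hochberg adjusted p, over 24548 probe sets, was below 0.05. Signals of different genes come from different probes and were not compared.

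Clofibrate against control asked how these genes differed after feeding the fibrate. Of the 35 members, 15 fell and 0 rose. Among all tested genes 3.8% fell and 3.22% rose. The genes that fell were 10 of the 17 folding genes, both translocon genes, Ern1 and Xbp1 of the 4 sensors, 1 of the 7 ERAD genes and 0 of the 5 ATF4 genes. The median log2 change was -0.40 over the members and -0.04 over all tested genes. By role it was -0.52 for folding, -0.67 for the translocon, -0.37 for the sensors, -0.19 for ERAD and 0.24 for ATF4 and its targets. At an unadjusted p below 0.05, limma gave 20 members lower and 0 higher, against 12% and 9.03% of all tested genes. The 3 clofibrate arrays lay below all 3 control arrays in 20 members and above them in 1, against 15.6% and 11.6% of all tested genes.

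**Figure D1:**
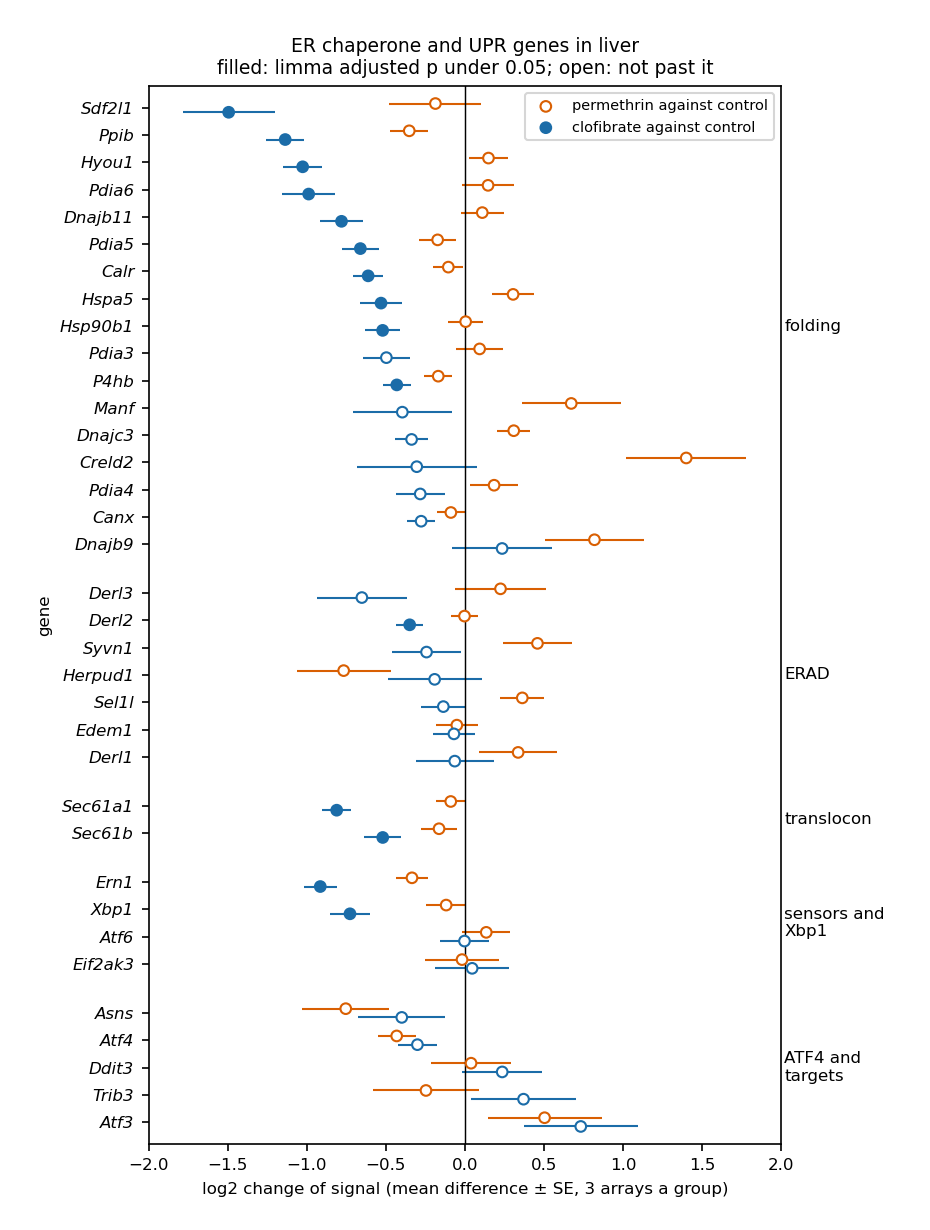
Log2 change of signal (x axis, mean difference ± SE, 3 arrays a group) for the 35 genes (y axis, grouped by role), permethrin against control in orange and clofibrate against control in blue, with filled circles where limma's adjusted p was below 0.05. The 15 filled circles are all blue and lie left of 0, from -1.49 for Sdf2l1 to -0.35 for Derl2.

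Among the folding genes, BiP and 3 of the proteins that work with it fell. Hyou1, an Hsp70-type chaperone and exchange factor of BiP, had signals of 691, 614 and 656 in the 3 control mice and of 325, 306 and 325 with clofibrate. All 3 clofibrate values lay near the middle of the distance from 0 to the controls, and Hyou1 fell 2.04-fold (log2 change -1.03 ± 0.12, limma adjusted p = 0.000716). Hspa5, which encodes BiP, the main ER Hsp70, had signals of 3708, 5191 and 4190.5 in controls and of 2777, 3081 and 3121 with clofibrate. The groups did not overlap, and the fall was 1.45-fold (-0.53 ± 0.13, limma adjusted p = 0.0426), a call lost in 15 of 19 alternatives. Dnajb11, a J-domain partner of BiP, had signals of 375, 469 and 436 in controls and of 256, 219 and 265 with clofibrate, again without overlap. Its fall was 1.72-fold (-0.78 ± 0.13, limma adjusted p = 0.00614). Sdf2l1, a partner of J-domain chaperones in the ER, was 197, 218 and 188 in controls and 112, 50.4 and 57.6 with clofibrate. This was the largest change among the members, 2.82-fold lower (-1.49 ± 0.29, limma adjusted p = 0.0122), with a wide spread among the clofibrate mice and no overlap with the controls. Its call was lost in 3 of 19 alternatives, among them hybridization control scaling and the fit without clofibrate replicate 3.

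Calr and Hsp90b1 fell as well, and Canx did not pass. Calr, calreticulin, a calcium-binding lectin chaperone of glycoproteins, had signals of 6108, 5889 and 6407 in controls and of 3886, 4319 and 3838 with clofibrate. The groups lay clearly apart, and Calr fell 1.53-fold (-0.61 ± 0.09, limma adjusted p = 0.0032). Hsp90b1, the ER Hsp90 known as GRP94, had signals of 3992, 4778 and 4457 in controls and of 3385, 2823 and 3008 with clofibrate. It fell 1.43-fold (-0.52 ± 0.11, limma adjusted p = 0.0176), a call lost in 10 of 19 alternatives. Canx, calnexin, the membrane-bound lectin chaperone, had a mean of 3324 ± 106 in controls and 2745 ± 189 with clofibrate, and its difference of -0.28 ± 0.09 did not pass (limma adjusted p = 0.0999).

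Of the 6 enzymes of disulfide and proline isomerization, 4 fell. Ppib, cyclophilin B, a proline isomerase of the ER, had signals of 4033, 3381 and 4324 in controls, 2803, 3502 and 2882 with permethrin, and 1868, 1779 and 1662 with clofibrate. The clofibrate values lay far below those of both other groups, and Ppib fell 2.20-fold (-1.14 ± 0.12, limma adjusted p = 0.00032), the smallest adjusted p among the members. Pdia6, a protein disulfide isomerase, had signals of 829, 834 and 1178 in controls and of 544, 464 and 408 with clofibrate, a 1.98-fold fall (-0.99 ± 0.17, limma adjusted p = 0.00542). Pdia5, a further isomerase of this family, went from 873 ± 113 to 549 ± 35.3, a 1.58-fold fall (-0.66 ± 0.12, limma adjusted p = 0.00727). P4hb, the founding protein disulfide isomerase, was 7077 ± 457 in controls and 5247 ± 337 with clofibrate, a 1.35-fold fall (-0.43 ± 0.09, limma adjusted p = 0.017) whose call was lost in 9 of 19 alternatives. The other members of the family did not pass: Pdia3, the isomerase that works with calreticulin and calnexin, differed by -0.50 ± 0.15 (limma adjusted p = 0.0827) and Pdia4 by -0.28 ± 0.15 (limma adjusted p = 0.36).

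**Figure D2:**
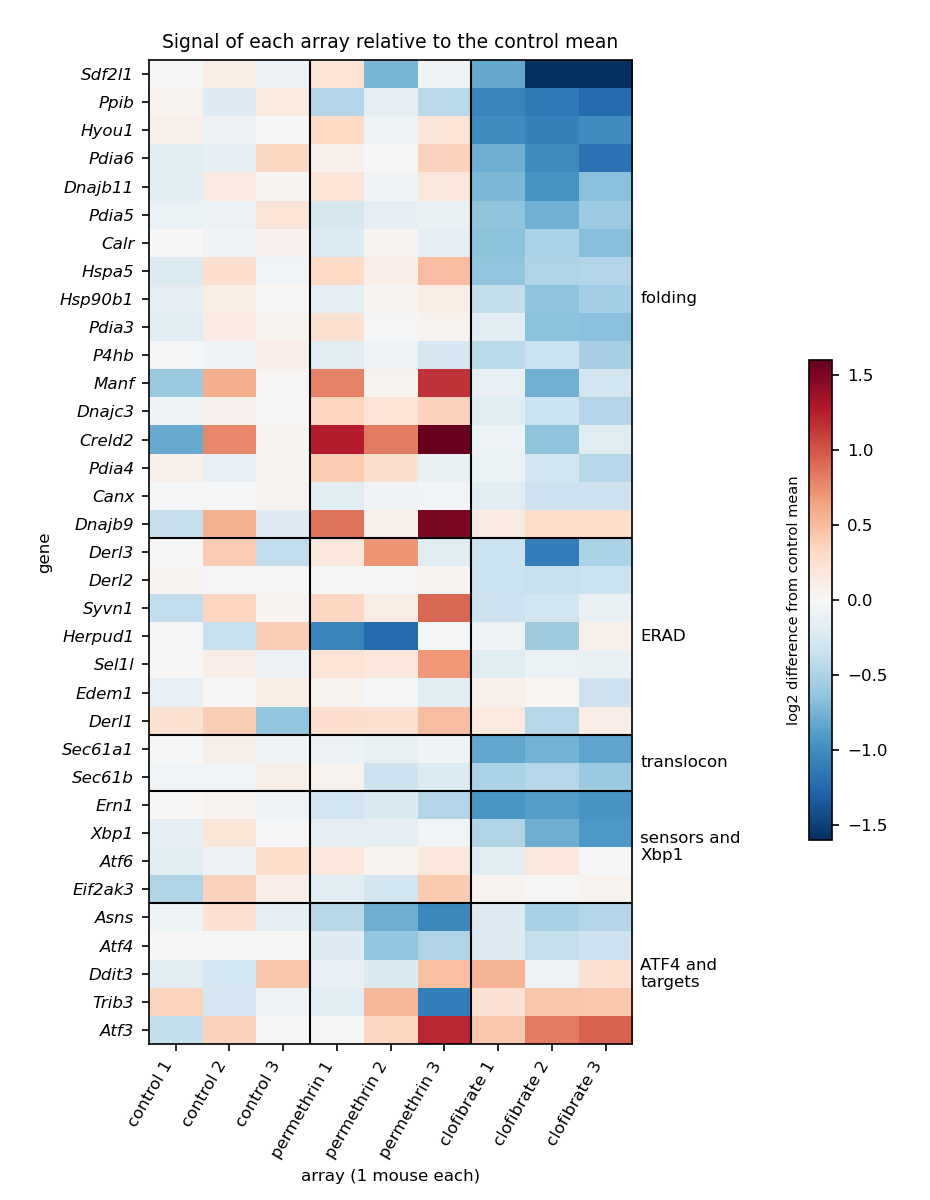
Each array's log2 signal minus the mean of the 3 control arrays (colour) for the 35 genes (rows, grouped by role) and the 9 arrays (columns, 1 mouse each). In the folding and translocon rows the 3 clofibrate columns are mostly blue, while Creld2, Manf and Dnajb9 are reddest in permethrin replicate 3. Colours saturate at the ends of the bar.

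The other 4 folding genes did not pass with clofibrate. Dnajc3, a J-domain co-chaperone also called p58IPK, had signals of 1226, 1343 and 1269.9 in controls and of 1118, 1003 and 922 with clofibrate. Its groups did not overlap, and the difference was -0.34 ± 0.10 (limma adjusted p = 0.0921). Manf, a secreted ER stress protein, differed by -0.40 ± 0.31 (limma adjusted p = 0.559), Creld2, an ER-resident isomerase-like protein, by -0.31 ± 0.38 (limma adjusted p = 0.731) and Dnajb9, the J-domain protein ERdj4, by 0.23 ± 0.31 (limma adjusted p = 0.753). In these last 3 genes the clofibrate values overlapped the control values.

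Both subunits of the Sec61 channel fell with clofibrate. Sec61a1, which forms the pore, had signals of 1646, 1786 and 1598 in controls, 1569, 1536 and 1616 with permethrin, and 940.5, 989 and 930.1 with clofibrate. The control and permethrin mice overlapped and the clofibrate mice lay well below them, a 1.76-fold fall (-0.81 ± 0.09, limma adjusted p = 0.000457). Sec61b, the small tail-anchored subunit, had signals of 1329, 1337 and 1464 in controls and of 968, 1002 and 906 with clofibrate, a 1.43-fold fall (-0.52 ± 0.12, limma adjusted p = 0.0238) whose call was lost in 7 of 19 alternatives.

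Of the sensors, Ern1, the kinase and RNase that splices Xbp1, had signals of 926, 951 and 869.9 in controls, 739, 777 and 663 with permethrin, and 479.6, 496 and 475 with clofibrate. The 3 groups did not overlap with each other, and with clofibrate Ern1 fell 1.89-fold (-0.92 ± 0.10, limma adjusted p = 0.000457). Xbp1, the transcription factor downstream of it, had signals of 3035, 3847 and 3288 in controls and of 2415, 1965 and 1778 with clofibrate, a 1.66-fold fall (-0.73 ± 0.13, limma adjusted p = 0.0064). The sensors of the other branches did not pass and had means close to the controls. Eif2ak3, which encodes PERK, was 114 ± 33.1 in controls and 114 ± 1.69 with clofibrate, and Atf6 was 193 ± 34.6 and 192 ± 24.0.

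In ERAD, which clears misfolded protein, 1 of 7 genes passed. Among all tested genes 3.8% fell and 3.22% rose, so a count this small is not read as a result about the role. Derl2, a derlin of the retrotranslocation complex, had signals of 1612, 1533 and 1543 in controls and of 1232, 1218 and 1225 with clofibrate. It fell 1.27-fold (-0.35 ± 0.09, limma adjusted p = 0.0367), and this call too was lost in 15 of 19 alternatives. The others had log2 differences between -0.65 for Derl3 and -0.06 for Derl1, with limma adjusted p-values of 0.242 and more. They were Sel1l and Syvn1, the adaptor and the ubiquitin ligase of the HRD1 complex, Herpud1, which recruits to this complex, Edem1, a lectin that hands over glycoproteins, and the derlins Derl1 and Derl3. No member of this group lay above 0.

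Of Atf4 and its targets, 0 of 5 passed in limma (0 higher and 1 lower at an unadjusted p below 0.05), and the signs were mixed. Among all tested genes 3.8% fell and 3.22% rose, and 12% were lower and 9.03% higher at the unadjusted level. With 5 genes these counts are not read as a result about the role. Atf4 itself had signals of 799.8, 778 and 803 in controls and of 689, 612 and 632 with clofibrate. The groups did not overlap, and the difference was -0.30 ± 0.12 (limma adjusted p = 0.196). Atf3, a stress-induced repressor, was 13.1 ± 4.23 in controls and 23.6 ± 4.83 with clofibrate (0.73 ± 0.36, limma adjusted p = 0.302), signals near the filter of 15.6. Trib3, a pseudokinase induced by ATF4, differed by 0.37 ± 0.33 (limma adjusted p = 0.615), Ddit3, the pro-apoptotic factor CHOP, by 0.24 ± 0.25 (limma adjusted p = 0.686) and Asns, asparagine synthetase, by -0.40 ± 0.27 (limma adjusted p = 0.488).

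The fall of the members was seen beside lower values of other bright genes. Of the 1247 tested genes with the highest mean signals, 17.7% fell with clofibrate and the median log2 change was -0.12. These genes included 16 members, of which 9 fell. Of the 1247 genes next in signal 6.66% fell, and 5 of the 11 members among them. Of 6 hepatocyte markers 4 fell with clofibrate (Alb, Apoa1, Cps1 and Serpina1c), with a median log2 change of -0.42, and their summed signal per mouse ran from 56819.8 to 62562.4 in the control group, from 48982.4 to 53514.9 in the permethrin group and from 38244 to 49284.6 in the clofibrate group. The part of brightness and of hepatocyte content in the members' changes was not tested. In bulk liver, fewer cells of a type and less RNA per cell cannot be told apart. Of the list for plasma cells and B cells, another cell type rich in ER, 1 of 5 tested genes fell with clofibrate, Sdc1, which hepatocytes also express and which makes up most of the list's summed signal (3171.12 to 3946.45, 2348.58 to 2731.4 and 2113.97 to 2545.91 in the 3 groups). Within the list the values were mixed. Ighm, the heavy chain of IgM, had signals of 29.2, 122 and 60.6 in controls, 69.8, 153 and 130.5 with permethrin and 98.8, 233 and 257 with clofibrate, so that control and clofibrate mice overlapped, and its clofibrate difference of 1.53 ± 0.48 was the largest of the list and did not pass (limma adjusted p = 0.0993). Jchain had means of 30.8, 22.5 and 27.7 in the control, permethrin and clofibrate groups, and neither it nor Mzb1 passed in any comparison. The 8 pancreas markers, from another secretory cell, gave 3 tested genes and none of them passed in limma, nor did any tested marker of T cells, endothelial cells, stellate cells or cholangiocytes.

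**Figure D3:**
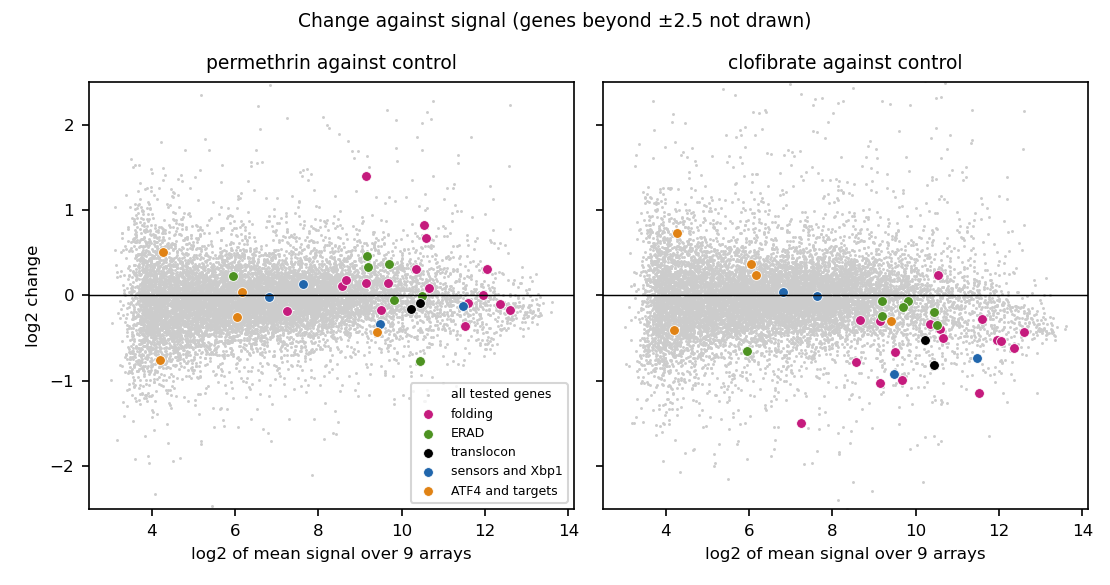
Log2 change (y axis) against the log2 of the mean signal over 9 arrays (x axis) for all 12467 tested genes in grey and the 35 members coloured by role, permethrin against control on the left and clofibrate against control on the right. Most members are bright, and on the right 30 of 35 lie below 0, while on the left they fall on both sides.

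With the arrays scaled to the hybridization controls, 3 of the 15 genes passed (Ern1, Hyou1 and Ppib), the members' median change was -0.06 in place of -0.40, and that of the folding genes -0.19 in place of -0.52. The members' median minus that of all genes was -0.33, compared with -0.35 before. Without clofibrate replicate 3, 9 members passed, with the arrays centred on their medians 8 did, and with the probe sets of a gene averaged 7 did. Over all tested genes, the 474 that fell became 88 with hybridization control scaling, and 217, 182 and 388 in these further settings. The 15 genes had 19 other tested probe sets, held by 10 of them. Of these, 15 had the same sign and 0 passed in the opposite direction. The 4 that also passed were those of Calr (-0.48 ± 0.09 and -0.57 ± 0.10, limma adjusted p = 0.00905 and 0.00769), Ppib (-0.80 ± 0.12, limma adjusted p = 0.00215) and Sec61a1 (-0.61 ± 0.10, limma adjusted p = 0.00442). A second probe set of Dnajc3 passed as well (-0.64 ± 0.16, limma adjusted p = 0.0419), unlike its brightest. Other probe sets of Hyou1 differed by -0.05 and 0.35 with means of 249 and 11.2 in controls, and the other tested probe set of Ern1 differed by 0.02 with a control mean of 26.6. The calls of Hyou1 and Ern1 were thus made on their brightest probe set. With probe sets averaged these calls were lost, as were those of Hspa5, Hsp90b1, Pdia6, Derl2, Sec61a1 and Xbp1. A probe set of Derl2 (0.02 ± 0.13) and a probe set of Sec61a1 (0.06 ± 0.21) also had the opposite sign. The other tested probe sets of Sec61a1 ran from -0.61 to 0.06.

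Permethrin against control asked the same question of the insecticide. Here 0 of 35 members rose and 0 fell in limma, against 1.28% and 0.85% of all tested genes. At an unadjusted p below 0.05, 5 members were higher and 5 lower, against 6.89% and 8.9% of all tested genes. The median log2 change of the members was 0.00, with 18 above and 17 below 0. By role it was 0.11 for folding, 0.22 for ERAD, -0.13 for the translocon, -0.07 for the sensors and -0.25 for ATF4 and its targets. The permethrin arrays lay above all controls in 3 members and below them in 6, against 9.53% and 13.2% of all tested genes.

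The 3 members that lay above all controls were Creld2, Dnajc3 and Sel1l. Creld2 had signals of 199.9, 606 and 364 in controls, 852, 630.2 and 1536 with permethrin, and 335, 225 and 309 with clofibrate. Its permethrin difference was the largest among the members, 1.40 ± 0.38 (2.64-fold, limma adjusted p = 0.107), and without control replicate 2 it was 1.78 and passed (limma adjusted p = 0.0489). Dnajc3, on its brightest probe set, had signals of 1629, 1474 and 1656 with permethrin, above the 1343 of the highest control, a difference of 0.31 ± 0.10 (limma adjusted p = 0.204). Sel1l had signals of 765, 829.8 and 720.1 in controls and of 897, 867 and 1251 with permethrin, a difference of 0.36 ± 0.14 (limma adjusted p = 0.268).

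Some genes known as sensitive reporters of ER stress differed widely between mice within the control and permethrin groups. Manf had signals of 874, 1981 and 1335 in controls and of 2302, 1377 and 2958 with permethrin. Dnajb9 had signals of 834, 1602 and 938 in controls and of 1967, 1139.9 and 3081 with permethrin. Syvn1 had signals of 403, 674 and 548 in controls and of 666, 578 and 1008 with permethrin. In these 3 genes, and in Creld2 and Hspa5, control replicate 2 was the highest control and permethrin replicate 3 the highest permethrin mouse, and the groups overlapped in all but Creld2. The permethrin differences of Manf, Dnajb9 and Syvn1 were 0.67 ± 0.31, 0.82 ± 0.31 and 0.46 ± 0.22, with limma adjusted p-values of 0.376, 0.267 and 0.386, and for Hspa5 0.30 ± 0.13 (limma adjusted p = 0.346). The other tested probe set of Syvn1 gave 0.09 ± 0.19. Not all members had this pattern. Sdf2l1 was highest in permethrin replicate 1 and Herpud1 in control replicate 3. Their permethrin differences were -0.19 ± 0.29 and -0.77 ± 0.30 (limma adjusted p = 0.833 and 0.271). The highest control was 3.03 times the lowest for Creld2, 2.27 times for Manf and 1.92 times for Dnajb9. It was 1.05 times for Derl2, 1.09 for Calr, 1.13 for Hyou1, 1.16 for Sdf2l1 and Pdia4 and 1.25 for Dnajb11. Derl1 and Eif2ak3 were also wide, at 2.04 and 1.83 times. Among the clofibrate mice the ratio was 1.11 for Dnajb9, 1.16 for Syvn1, 1.49 for Creld2 and 1.55 for Manf.

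**Figure D4:**
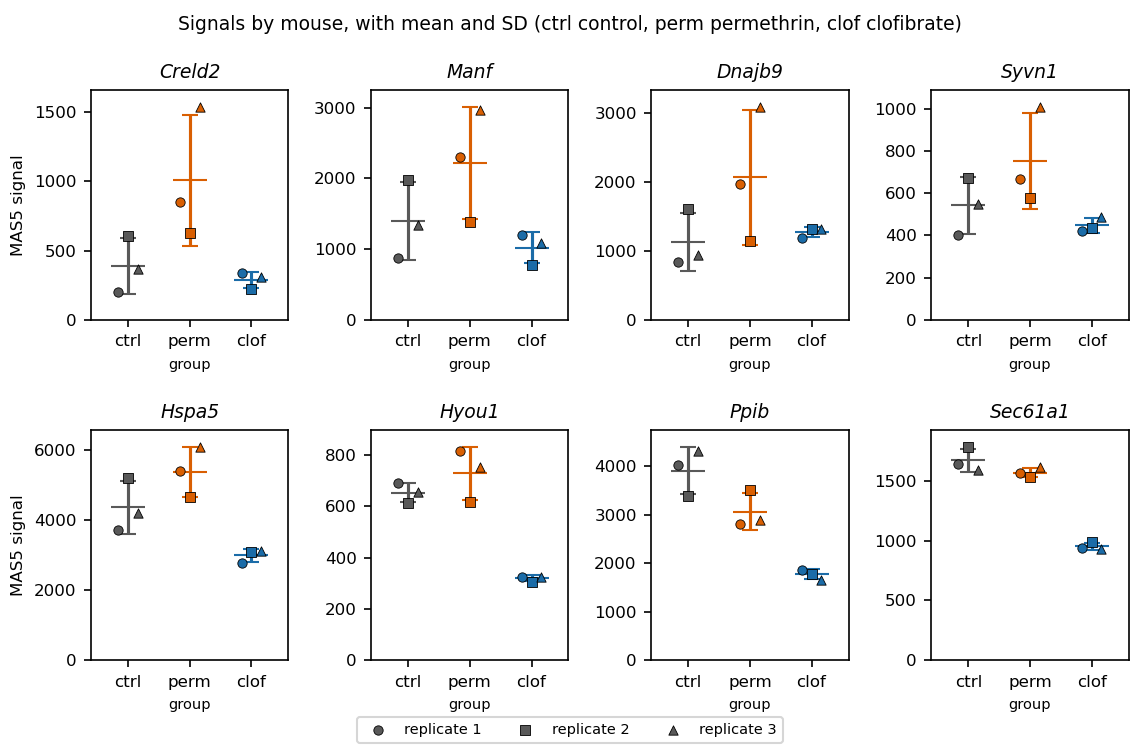
MAS5 signal (y axis, from 0) of 8 members in each mouse, by group (x axis: ctrl control, perm permethrin, clof clofibrate), with markers for the replicate number and lines for the mean ± SD. In the upper row control replicate 2 and permethrin replicate 3 are the highest of their groups, and in the lower row all clofibrate mice lie below all control mice.

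Over the members, control replicate 2 was the highest control in 19 of 35 genes (54.3%), and permethrin replicate 3 was the highest permethrin mouse in 19 of 35 (54.3%). Over all tested genes these arrays were the highest in 33.2% and 30.4%. Among the clofibrate mice, replicate 1 was the highest in 19 of 35 (54.3%), against 36.5% of all tested genes. Markers of Kupffer cells and macrophages had summed signals of 2483.71 to 2891.64 in the control group, 2113.54 to 4455.65 in the permethrin group and 2335.56 to 3288.04 in the clofibrate group, and 0 of 6 passed in limma for permethrin against control, also at an unadjusted p below 0.05. The highest of these sums in the control and permethrin groups were those of control replicate 2 and permethrin replicate 3. Among the clofibrate mice the highest sum was that of replicate 3 and not of replicate 1. The part of these markers in the spread of the members was not tested.

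Several members had lower means with permethrin and did not pass. Herpud1 had signals of 1590.0, 1266 and 2133 in controls and of 779.8, 692 and 1605 with permethrin, a difference of -0.77 ± 0.30 (limma adjusted p = 0.271). Its groups overlapped through permethrin replicate 3. Atf4 had signals of 689.6, 517 and 568 with permethrin, all below the lowest control of 778, a difference of -0.43 ± 0.12 (limma adjusted p = 0.119). Asns had signals of 22.9, 29.0 and 21.6 in controls and of 16.9, 12.8 and 10.1 with permethrin, without overlap (-0.75 ± 0.27, limma adjusted p = 0.241). Ern1 also lay below all controls, by -0.34 ± 0.10 (limma adjusted p = 0.159), and Ppib differed by -0.35 ± 0.12 (limma adjusted p = 0.206). The folding genes Pdia5, P4hb and Canx lay below all controls as well. Their differences were -0.17 ± 0.12, -0.17 ± 0.09 and -0.09 ± 0.09 (limma adjusted p = 0.568, 0.445 and 0.709). The translocon genes were close to the controls, with differences of -0.09 ± 0.09 for Sec61a1 and -0.16 ± 0.12 for Sec61b.

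Permethrin against clofibrate compared the 2 treated groups directly, which is also the test of whether the 2 changes from control differed, since the 3 control arrays are shared by both. With permethrin 9 of 35 members were higher and 0 lower, against 0.473% and 0.265% of all tested genes. They were 7 folding genes (Hspa5, Pdia6, Calr, Dnajb11, Dnajc3, Hyou1 and Ppib), Sec61a1 and Ern1. The differences ran from 0.51 ± 0.09 for Calr (limma adjusted p = 0.0411) to 1.18 ± 0.12 for Hyou1 (limma adjusted p = 0.00221). The calls of Calr and Ern1 were lost in 17 and 14 of 19 alternatives. Of the 18 other tested probe sets of these genes, 17 had the same sign and 0 passed in limma, with 8 at an unadjusted p below 0.05. The only other tested probe set of Ern1 had the opposite sign (-0.48 ± 0.29), with a control mean of 26.6. At an unadjusted p below 0.05, 23 members were higher and 0 lower, against 6.59% and 6.44% of all tested genes. The permethrin arrays lay above all clofibrate arrays in 23 members and below them in 0, against 9.08% and 9.02% of all tested genes. All 17 folding genes lay above 0, with a median of 0.65.

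Hyou1 had signals of 817, 617 and 752 with permethrin, around the control values, and every clofibrate mouse was at 325 or lower. Pdia6 had signals of 985, 928 and 1208 with permethrin, and the difference from clofibrate was 1.13 ± 0.17 (limma adjusted p = 0.0139). Hspa5 had signals of 5385, 4649 and 6069 with permethrin, a difference from clofibrate of 0.84 ± 0.13 (limma adjusted p = 0.0203). Its permethrin mean lay above the control mean and its clofibrate mean below it, as was so for Hyou1, Pdia6 and Dnajb11. The permethrin differences from control of those genes were 0.15 ± 0.12, 0.15 ± 0.17 and 0.11 ± 0.13. Dnajc3 showed the same order on its brightest probe set, and differed between the treated groups by 0.65 ± 0.10 (limma adjusted p = 0.0207), a call lost in 10 of 19 alternatives. Its 4 other tested probe sets gave permethrin differences from control of 0.00, -0.02, 0.08 and 0.02, so the higher permethrin value was seen on the brightest alone. The 2 other tested probe sets of Hspa5 gave 0.16 and -0.01. For Ppib, Ern1, Calr and Sec61a1 both treated means were below the control mean, and clofibrate was the lower.

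The remaining differences that were large did not pass. Creld2 differed by 1.70 ± 0.38 (limma adjusted p = 0.0804), Sdf2l1 by 1.31 ± 0.29 (limma adjusted p = 0.0798) and Manf by 1.07 ± 0.31 (limma adjusted p = 0.188). In ERAD, 0 of 7 passed in limma (4 higher at an unadjusted p below 0.05) and the median was 0.40. For Atf4 and its targets, 0 of 5 passed in limma at either level and all 5 lay below 0, with a median of -0.23. Among all tested genes 0.473% were higher and 0.265% lower, and 6.59% and 6.44% at the unadjusted level. This comparison was sensitive to single mice and to scaling. Without clofibrate replicate 3, 1 member passed, Hyou1, and scaled to the hybridization controls 0 did. Over all tested genes the number higher dropped as well, from 59 to 16 and to 9. Without clofibrate replicate 2, permethrin replicate 1 or permethrin replicate 3, the member counts were 3, 4 and 5, and without clofibrate replicate 1 the count was 11. In these fits 36, 33, 39 and 69 of all tested genes were higher.

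Genes that share the roles of the members, from lists written from textbook knowledge, were counted in the same way. Of 29 further genes of the translocon, signal peptidase and oligosaccharyltransferase, 9 fell with clofibrate and 0 rose in limma. At an unadjusted p below 0.05, 15 were lower and 1 higher. Among all tested genes 3.8% fell and 3.22% rose, and 12% were lower and 9.03% higher at the unadjusted level. The largest falls were in Spcs3, a signal peptidase subunit (-0.95 ± 0.11, limma adjusted p = 0.000457), Rpn1 and Krtcap2, subunits of the oligosaccharyltransferase (-0.80 ± 0.11 and -0.76 ± 0.10, limma adjusted p = 0.00198 and 0.00143), and Spcs2 (-0.74 ± 0.14, limma adjusted p = 0.0116). Of 25 further folding genes, 6 fell and 1 rose. The falls were led by the thioredoxin-like Txndc5 (-0.94 ± 0.15, limma adjusted p = 0.00462), the cargo receptor Lman1 (-0.80 ± 0.09, limma adjusted p = 0.000626), the glycoprotein folding sensor Uggt1 (-0.72 ± 0.14, limma adjusted p = 0.0111) and the oxidase Ero1b (-0.69 ± 0.14, limma adjusted p = 0.0138). The gene that rose was Tor1a, an ATPase of the ER lumen (0.57 ± 0.12, limma adjusted p = 0.0161), and it was named after its values were seen. Against clofibrate, permethrin livers were higher in 6 of the 29 and 3 of the 25 genes and lower in none of them. In that comparison 0.473% of all tested genes were higher and 0.265% lower.

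In the further lists of the other roles fewer genes passed, and beside the 3.22% of all tested genes that rose and the 3.8% that fell, these small counts are not read as a result about the lists. Of 24 further ERAD genes, Os9, a lectin of the HRD1 complex, fell (-0.75 ± 0.13, limma adjusted p = 0.00755), while Nploc4, a cofactor of the p97 ATPase, and Ubxn8, which tethers p97 to the ER, rose (0.71 ± 0.16 and 0.52 ± 0.14, limma adjusted p = 0.0248 and 0.0491). Of 21 further sensors and factors, 1 rose, the ER-bound factor Nfe2l1 (0.97 ± 0.20, limma adjusted p = 0.0151). Of 28 further ATF4 targets, 2 rose and 3 fell. The hormone Fgf21 rose (1.14 ± 0.30, limma adjusted p = 0.0484), and it is also a known target of PPAR alpha. Map1lc3b, which encodes the autophagy protein LC3B, rose too (0.52 ± 0.10, limma adjusted p = 0.0102). The enzymes Cth and Shmt2 fell (-0.92 ± 0.19 and -0.55 ± 0.10, limma adjusted p = 0.0173 and 0.0111). The third to fall, the tRNA synthetase Nars, was named after its values were seen (-0.34 ± 0.09, limma adjusted p = 0.0473). With permethrin, 1 gene rose and 1 fell over these 5 lists, no larger a share than the 1.28% and 0.85% of all tested genes: Ubxn4 of the ERAD list (0.68 ± 0.14, limma adjusted p = 0.0432) and Atf5 of the ATF4 list (-0.70 ± 0.12, limma adjusted p = 0.0169).

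**Figure D5:**
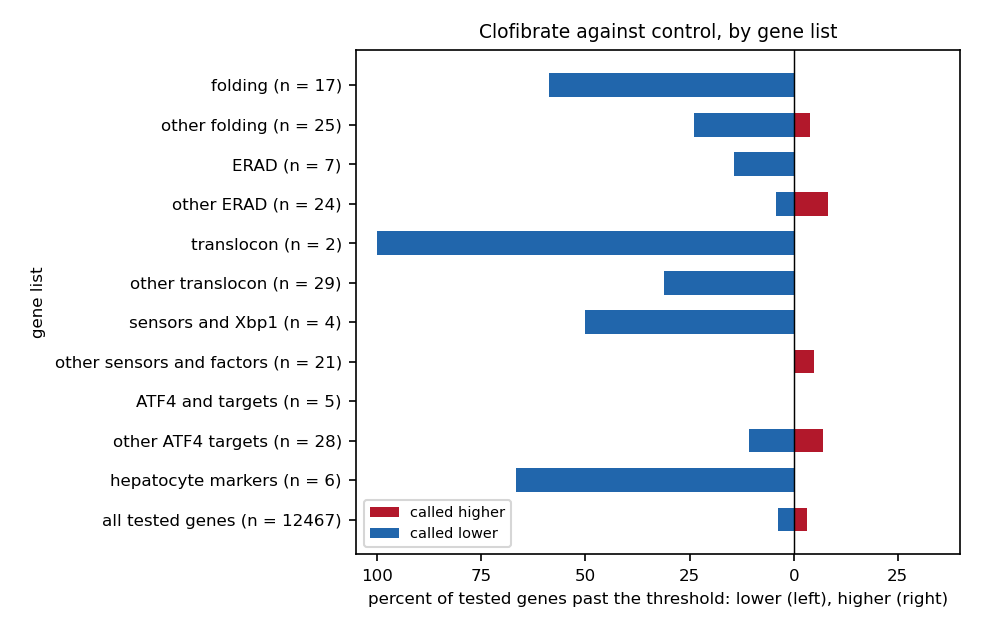
Percent of tested genes that fell (blue, left of 0) or rose (red, right of 0) with clofibrate at limma's adjusted p below 0.05, by gene list with the number of tested genes (n). The longest blue bars are those of the 2 translocon members, the hepatocyte markers, the 17 folding members and the 4 sensor members, beside 3.8% for all tested genes, while the other sensors and factors and the 5 ATF4 genes have no blue bar.

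Set beside the promoter letters, the 9 members with the ER stress response element had a median log2 change of -0.52 with clofibrate and 0.22 with permethrin. With clofibrate all 9 lay below 0 and 4 of them fell (Calr, Hsp90b1, Hspa5 and Pdia6), and with permethrin 7 lay above 0 and 0 passed in limma (3 higher at an unadjusted p below 0.05). The 21 members with a window and without the element had medians of -0.35 and -0.12, and 9 of them fell with clofibrate. Of these 21, 16 lay below 0 with clofibrate. With permethrin 7 lay above 0, and 2 were higher and 5 lower at an unadjusted p below 0.05. Among all tested genes 55.3% lay below 0 and 3.8% fell with clofibrate. With permethrin 43.7% lay above 0, and 6.89% were higher and 8.9% lower at an unadjusted p below 0.05. The 4 members with the C/EBP-ATF element had medians of 0.09 and -0.50, and 0 passed in limma in either comparison (2 lower with permethrin and 0 with clofibrate at an unadjusted p below 0.05). These are descriptions of chosen genes, and no test of the element was made.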

How the data were processed

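Liver RNA of 9 mice was measured on Affymetrix arrays, 1 mouse per array. Per the labels' protocols, total RNA was copied into biotin-labelled cRNA, and per the submitters' processing notes the deposited values are MAS5 signals. The table the authors deposited holds 1 linear intensity per probe set and array. Its mean without the lowest and highest 2% was the same on each array, and the sources used here do not state the settings of MAS5 or the build behind the probe annotation. Of 45037 probe sets that are no array controls, 34945 had 1 gene symbol, 932 several and 9160 none here; symbols were updated through Entrez identifiers. An offset of 3.35, the 20th percentile, was added before log2, and 24548 probe sets were tested, those above the median signal of 15.6 on 3 or more arrays. In limma 3.58.1 (R 4.3.3), all 9 arrays entered 1 linear model with a mean per group and an intensity trend; p-values are two-sided and Benjamini-Hochberg adjusted over all tested probe sets within each comparison. The method was tested on simulated data. The number of arrays limits the precision: an exact permutation test of 3 against 3 cannot go below 0.1, and p-values measure the spread between these mice.

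The members, the further lists and the markers were chosen with earlier results of these data known. All members are named, and of the further lists at most 4 genes a list and comparison past the threshold, largest change first; genes of the lists without a probe set of their own were not analysed here. The labels do not say that replicate numbers pair mice, so no pairing was used. Deviations from group means correlated at -0.109 to 0.113 between arrays with the same number. Arrays with different numbers were not compared, so these values do not settle whether mice were paired. Alternatives changed the offset, normalization, filter, variance model, arrays in the model, probe sets per gene, a replicate block and each array left out; scaling by cyclic loess was chosen after seeing the data. Promoters are from RefSeq, and 5 members without a window are not described there. No label used here names a batch.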

Additional observations from a re-analysis of the deposited data

Results flagged for a closer look

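In 9 members the change from control differed between the compounds, by limma's test of permethrin against clofibrate. The permethrin minus clofibrate log2 difference was 1.18 for Hyou1, 1.13 for Pdia6, 0.89 for Dnajb11, 0.84 for Hspa5, 0.78 for Ppib, 0.72 for Sec61a1, 0.65 for Dnajc3, 0.58 for Ern1 and 0.51 for Calr. On the brightest probe sets of Hspa5, Dnajc3, Hyou1, Pdia6 and Dnajb11 the permethrin mean lay above the control mean and the clofibrate mean below it. None of these genes rose past the threshold with permethrin. The 4 other tested probe sets of Dnajc3 had permethrin differences from control between -0.02 and 0.08. For Ern1, the only other tested probe set had a permethrin minus clofibrate difference of opposite sign (-0.48 ± 0.29). Of the 19 alternatives, Hyou1 kept its call in all but 2, hybridization control scaling and averaged probe sets, while Calr lost it in 17, Ern1 in 14, Dnajc3 in 10, Hspa5 in 8, Dnajb11 and Ppib in 7 each, Sec61a1 in 5 and Pdia6 in 4. Of the 18 other tested probe sets of these genes, 17 had the same sign and 0 passed in limma, with 8 at an unadjusted p below 0.05.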

How the results depend on the processing

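The 15 members lower with clofibrate became 3 with hybridization control scaling, 8 with median centring, 8 without the intensity trend and 7 with probe sets averaged, and leaving out single arrays gave 9 to 16. Over all tested genes, the 474 lower became 88, 182, 178 and 388 in these settings, and 217 to 486 without single arrays. With quantile normalization, cyclic loess, no filter, 2 groups only and an offset of 16 the member counts were 12, 11, 12, 13 and 15. Those over all tested genes were 404, 382, 330, 423 and 493. Ppib passed in all 19 alternatives, Dnajb11, Hyou1 and Ern1 in all but 1 each, and Hspa5 and Derl2 lost their calls in 15, Hsp90b1 in 10, P4hb in 9 and Sec61b in 7. The 9 members higher with permethrin than with clofibrate became 0 with hybridization control scaling, 2 with median centring, 1 without the intensity trend and 2 with probe sets averaged, and leaving out single arrays gave 1 to 11. Over all tested genes, the 59 higher became 9, 26, 9 and 39 in these settings, and 16 to 69 without single arrays. For permethrin against control, 0 members were higher or lower in all alternatives except without control replicate 2, where 1, Creld2, was higher, so leaving out single arrays gave 0 to 1. With the replicate number as a block the counts were 13 lower with clofibrate and 5 higher with permethrin than with clofibrate; the labels do not say that the numbers pair mice. No member called in either setting changed its sign. Where a count moved, the cause was not tested. Signals near the filter, as for Asns and Atf3, limit what can be seen of those genes.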
